A study of Homo sapiens with 11 samples.

Results

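The receptors of the ERBB family and their ligands were followed on 11 arrays. The RNA came from PC-3, an established line of human prostate cancer cells. All probes were taken whose gene name in the scanner files was EGFR, ERBB2, ERBB3, ERBB4, AREG, EREG, HBEGF, TGFA, BTC or NRG1. These 10 genes, of 30484 different entries in the gene name column, had 20 of its 41000 probes. The set was chosen with measured values of the same arrays in view, because an ERBB4 probe was among the probes that rose most after the common-seed duplexes and EGFR was among the transcripts listed as lower. The differences of the members from mock are therefore descriptions without a test.

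PC-3 cells were transfected with chemically synthesized duplexes of dsEcad640, miR-520f, miR-302a, miR-373, miR-520c or miR-372, and RNA was taken 24 h later. Mock cells received the transfection reagent alone, so that no array held cells given an unrelated duplex. The study asked whether dsEcad640, an siRNA designed against the E-cadherin promoter, and miRNAs that share its seed change the same transcripts. The common-seed duplexes are those of miR-520c, miR-373, miR-372 and miR-302a together with dsEcad640. The arrays form 3 sets, of 1 slide each. In set 1, mock sample 1 stood beside miR-302a sample 3, dsEcad640 sample 2 and miR-372 sample 4. In set 2, mock sample 8 stood beside miR-373 sample 7 and miR-520f sample 6. In set 3, mock samples 9 and 11 stood beside miR-372 sample 10 and miR-520c sample 12. Each array received a mix of RNA from 4 transfections of this single line. The p-values therefore rest on the spread between mixes, which may be technical, and not between single transfections. Where the common-seed arrays are fitted as 1 class, that spread also holds differences between these duplexes. The title of miR-520f sample 6 reads miR-530f, and its other labels read miR-520f.

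EGFR, ERBB2, ERBB3 and ERBB4 are receptor tyrosine kinases of the cell surface that signal as pairs. Their ligands are made as membrane-anchored precursors and are released by ADAM proteases, and the receptors pass the signal to the RAS-ERK, PI3K-AKT and STAT pathways. In epithelial cancers the family is known for driving growth. ERBB2 has no known ligand of its own, and ERBB3 has little kinase activity and signals with a partner.

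The duplexes differ in the bases that pair with a target, and their mature strands are shown for that reason, as given by RefSeq on GRCh38.p14 with the seed, bases 2 to 8, in capitals. The mature strand lies at chr4:112648186-112648208 on the minus strand for miR-302a, and on the plus strand at chr19:53787931-53787953 for miR-372, at chr19:53788748-53788770 for miR-373, at chr19:53707506-53707527 for miR-520c and at chr19:53682213-53682234 for miR-520f. The first 4 share the seed AAGUGCU.
miR-302a-3p: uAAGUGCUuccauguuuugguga
miR-372-3p: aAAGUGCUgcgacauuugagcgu
miR-373-3p: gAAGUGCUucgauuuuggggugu
miR-520c-3p: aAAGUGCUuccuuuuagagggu
miR-520f-3p: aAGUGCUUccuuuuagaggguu
The seed of miR-520f is AGUGCUU, and the AAGUGCU of the other strands stands at its bases 1 to 7. The sequence of dsEcad640 is not shown here.

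A level is the log2 processed signal less the 75th percentile of all log2 signals on that array, and a difference is a level less the mean mock level of the same set. A probe was tested when the scanner software had marked it on 6 or more arrays as well above background, which left 26919 probes. Of the 20 member probes, 11 were tested, for 9 of the 10 genes, and 7 were well above background on every array. All 4 probes of NRG1 fell under this filter. Between 55.6% and 73.7% of spots were well above background on 10 arrays, against 88.4% on miR-372 sample 4. Probes that were dim on mock sample 1 had a median difference of 2.46 on miR-372 sample 4, against -0.55 on dsEcad640 sample 2 and -0.28 on miR-302a sample 3. The median difference of probes dim on the mock arrays of their set was 1.21 on miR-520f sample 6, 0.86 on miR-373 sample 7, 0.52 on miR-520c sample 12 and -0.02 on miR-372 sample 10, so leaving out miR-372 sample 4 alone does not remove such shifts. All 8 probes of KRT8, KRT18, KRT19 and EPCAM were well above background on all 11 arrays. Of 10 probes for markers of leukocytes, endothelium and stroma, 2 were well above background on no array and 2 on all 11. Of these 10 probes, 4 passed the filter, for 3 genes. The summed level of the 10 probes was 0.196 to 0.324 times the 75th percentile on the mock arrays, 0.212 to 0.996 on the common-seed arrays and 0.339 with miR-520f.

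ERBB4, the receptor for neuregulins, had 2 probes, and the signal of 1 was higher on every duplex array than on mock in the same set. That probe, A_32_P183765 (NM_005235, hg18 chr2:211948760-211948819), was dim. The mock levels were -6.85 in set 1, -7.53 in set 2, and -6.13 and -6.98 in set 3. In set 1 the level was -5.06 with dsEcad640, -5.38 with miR-302a and -3.73 with miR-372. In set 2 it was -5.70 with miR-520f and -5.40 with miR-373, and in set 3 it was -4.39 with miR-372 and -4.13 with miR-520c. With this probe no duplex array overlapped the mock arrays. Of all tested probes, 16.7% had all 6 common-seed arrays above the mock of their set, which is a looser pattern. The signal was well above background on 5 of the 6 common-seed arrays, on mock samples 9 and 11 of the 4 mock arrays, and not with miR-520f.

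Both sides were measured in set 3 alone, where ERBB4 was 4.49-fold higher with miR-372 and 5.39-fold higher with miR-520c than the mean of the mock arrays. The pair of mock arrays there differed by 0.85 on the log2 scale, against differences of 2.17 and 2.43. In set 1, where the mock array was below background, the ratio was at least 2.94-fold with miR-372 and at least 1.17-fold with dsEcad640, and miR-302a allowed no bound. In set 2 neither side was well above background and no ratio is given. Over the 6 common-seed arrays the difference was 2.19 ± 0.57 (SD, n = 6), and without miR-372 sample 4 it was 2.00 ± 0.37 (SD, n = 5), both from signals used as measured. Of the 14437 probes dim on mock sample 1, 25.3% had a larger difference than ERBB4 on miR-372 sample 4. The share was 0.79% on dsEcad640 sample 2 and 2.20% on miR-302a sample 3. The share among the probes dim on mock was 6.12% with miR-520f and 5.04% with miR-373 in set 2, and 0.94% with miR-372 and 2.08% with miR-520c in set 3. Nothing is read from these shares, since the probe was chosen for its rise on the common-seed arrays. The part of the shifts of dim signals in the values of ERBB4 was not tested.

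The second ERBB4 probe, A_23_P423853 (NM_005235, chr2:211955253-211955312), was well above background on miR-372 samples 4 and 10 only. It had differences of 2.99 and 1.70 there, for ratios of at least 1.75-fold and at least 1.03-fold. It was 0.47 and 0.05 below mock with dsEcad640 and miR-302a in set 1, where the first probe was 1.79 and 1.48 above it, so the probes disagreed on those arrays. In set 3 miR-520c gave 1.78, in set 2 miR-373 gave 2.58 and miR-520f gave 1.26, all from dim signals. Its mock levels ran from -9.43 to -7.47.

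EGFR, the receptor of EGF, AREG and TGFA, was lower on all 6 common-seed arrays than on mock, and near mock with miR-520f. The probe A_23_P215790 (NM_005228, chr7:55242335-55242394) stood on each array as 10 spots, whose SD within an array was 0.05 to 0.10. The mock levels were -1.56, -1.49, -1.11 and -0.54 in samples 1, 8, 9 and 11. With dsEcad640 and miR-302a it was -1.97 on both arrays, with miR-372 it was -1.75 in set 1 and -1.48 in set 3, with miR-373 it was -1.77 and with miR-520c it was -0.91. Each common-seed array lay below the mean mock level of its set, but miR-520c lay above mock sample 9, and without regard to set the groups overlapped. The differences ran from -0.66 with miR-372 in set 3 to -0.09 with miR-520c, with a mean of -0.34 ± 0.20 (SD, n = 6). miR-520f, at -1.49, differed from its mock array by 0.00. The pair of mock arrays in set 3 differed by 0.57, which is more than every common-seed difference but that of miR-372 sample 10.

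ERBB2, the receptor that most often serves as a partner for the others, also stood on each array as 10 spots. Over these spots its differences from mock ran from -0.32 with miR-373 to 0.15 with miR-372 in set 3. Its probe A_23_P89249 (NM_001005862, chr17:35138355-35138414) had mock levels of 0.94, 0.97, 0.93 and 0.74 in samples 1, 8, 9 and 11. In set 1 it was 0.64 with dsEcad640, 0.77 with miR-302a and 0.79 with miR-372. In set 2 it was 0.65 with miR-373 and 0.96 with miR-520f, and in set 3 it was 0.99 with miR-372 and 0.87 with miR-520c. The 4 common-seed arrays of sets 1 and 2 were 0.15 to 0.32 below their mock array and both of set 3 were above theirs, with a mean difference of -0.13 ± 0.19 (SD, n = 6). The other ERBB2 probe, A_24_P284420 (chr17:35120176-35120235), was well above background on mock sample 11 and miR-372 sample 4 only.

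ERBB3, which relies on a kinase partner, was near background. Probe A_24_P918970 (U88357, chr12:54768980-54769039) was well above it on 7 arrays, and its differences ran from -0.98 with miR-373 to 1.65 with miR-372 in set 1, with a mean of 0.17 ± 0.91 (SD, n = 6), or -0.13 ± 0.62 (SD, n = 5) without miR-372 sample 4. In set 3, where both sides were measured, the difference was 0.18 with miR-372 and 0.48 with miR-520c, and the mock arrays differed by 0.51. Probe A_23_P349416 (NM_001982, chr12:54782427-54782486) was well above background on the 4 arrays of set 3 alone, where miR-372 differed from mock by -0.13 and miR-520c by -0.76. These 2 probes went in opposite directions with miR-520c. Probe A_24_P919096 (U88360, chr12:54773897-54773956) was above background on no array.

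AREG, the ligand amphiregulin, was higher on all 7 duplex arrays than on mock. The probe A_23_P259071 (NM_001657, chr4:75539382-75539441) had mock levels of 2.01, 1.91, 2.50 and 2.68 in samples 1, 8, 9 and 11. It was 2.41 with dsEcad640, 2.26 with miR-302a and 2.08 with miR-372 in set 1, 2.64 with miR-520f and 2.01 with miR-373 in set 2, and 2.94 with miR-372 and 3.66 with miR-520c in set 3. Within each set no duplex array overlapped mock, but between sets mock sample 11 lay above all 5 duplex arrays of sets 1 and 2. AREG was 2.10-fold above mock with miR-520c and 1.66-fold with miR-520f, and 1.05-fold to 1.32-fold on the other 5 arrays. The mean difference over the common-seed arrays was 0.37 ± 0.36 (SD, n = 6), and the mock arrays of set 3 differed by 0.18. Human genome builds of that time carried a near-identical copy of AREG, and whether the probe tells them apart was not tested.

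HBEGF, the heparin-binding ligand of EGFR and ERBB4, had 2 probes that were well above background on every array. The levels of A_24_P140608 (NM_001945, chr5:139693236-139693295) on mock samples 1, 8, 9 and 11 were -0.89, -0.92, -1.20 and -0.94. They were -0.29 with dsEcad640, -0.53 with miR-302a, -0.61 and -0.91 with miR-372 in sets 1 and 3, -0.69 with miR-373, -0.51 with miR-520c and -0.11 with miR-520f. All 7 duplex arrays lay above the mean mock level of their set, by 1.76-fold with miR-520f, 1.51-fold with dsEcad640, 1.47-fold with miR-520c and 1.11-fold to 1.28-fold otherwise, and the mock arrays of set 3 differed by 0.26. The mean common-seed difference was 0.36 ± 0.18 (SD, n = 6).

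The other HBEGF probe, A_23_P213944 (chr5:139695692-139695751), was likewise highest above mock with miR-520f and dsEcad640, but not above it in set 3. Its level was -1.59 on mock sample 1, -1.62 on mock sample 8, -2.07 on mock sample 9 and -2.04 on mock sample 11. It was 1.42-fold above mock with miR-520f and 1.38-fold with dsEcad640, but 0.04 below mock with miR-520c and 0.17 below it with miR-372 in set 3 on the log2 scale. The mean common-seed difference was 0.10 ± 0.22 (SD, n = 6). Outside set 3 both probes stood above mock on every duplex array, most with miR-520f and dsEcad640, though this probe by only 0.008 with miR-373. In set 3 the probes had opposite signs with miR-520c and with miR-372.

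**Figure D1:**
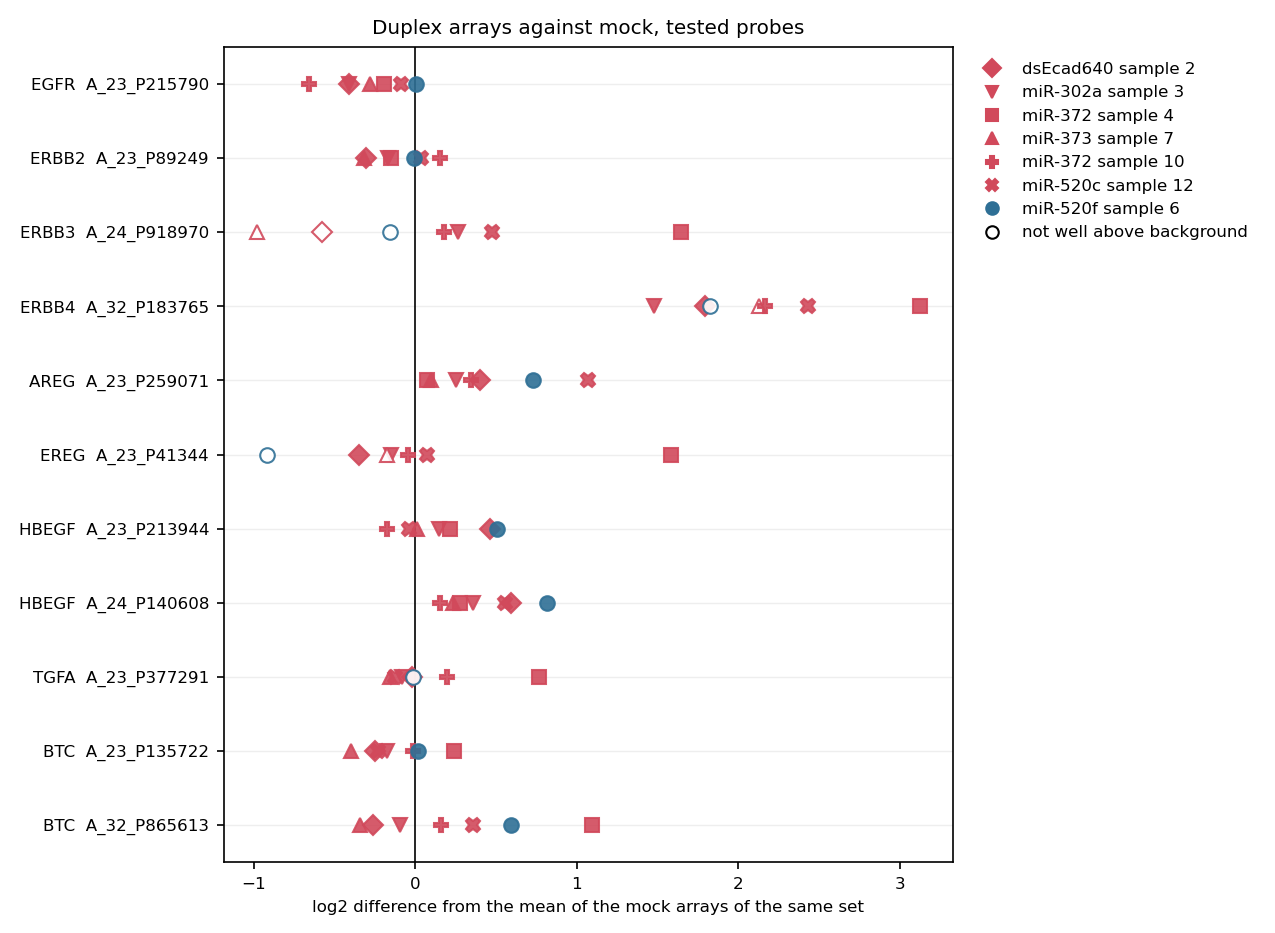
Log2 differences of each duplex array from the mean of the mock arrays of its set, for the 11 tested member probes. Symbols mark the array, red the common-seed duplexes and blue miR-520f, and open symbols were not well above background. The 6 common-seed arrays all lie right of 0 for ERBB4, AREG and 1 HBEGF probe, and left of 0 for EGFR.

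The remaining ligands stayed nearer to mock or were dim. EREG, epiregulin, was well above background with A_23_P41344 (NM_001432, chr4:75472873-75472932) on 9 arrays, and the 2 exceptions were both duplex arrays of set 2. It was 3.00-fold above mock on miR-372 sample 4, and its other measured differences were -0.35 with dsEcad640, -0.15 with miR-302a, -0.04 with miR-372 in set 3 and 0.07 with miR-520c. In the authors' log2 table the difference on miR-372 sample 4 was 0.04, against 1.59 here. Without miR-372 sample 4 the mean was -0.13 ± 0.16 (SD, n = 5). Mock was at least 1.13-fold above miR-373 in set 2, and miR-520f allowed no bound. The second EREG probe, A_24_P217520 (chr4:75465717-75467283), was above background on miR-372 sample 4 alone.

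TGFA, a ligand of EGFR, had 1 probe, A_23_P377291 (NM_003236, chr2:70528827-70528886), above background on all arrays but that of miR-520f. It differed from mock by 0.76 on miR-372 sample 4 and by -0.15 to 0.20 on the other 5 common-seed arrays, a mean of -0.04 ± 0.14 (SD, n = 5) without that array. In the authors' log2 table TGFA stood at -1.01 on miR-372 sample 4, the opposite direction. BTC, betacellulin, had A_23_P135722 (NM_001729, chr4:75894862-75894921), with differences of -0.39 with miR-373 to 0.24 on miR-372 sample 4, and 0.02 with miR-520f. Its other probe, A_32_P865613 (chr4:75890677-75890736), was between -0.34 with miR-373 and 1.09 on miR-372 sample 4, and 0.59 with miR-520f. The probes of BTC thus gave unlike values for miR-520f. On miR-372 sample 4 the authors' log2 table gives -0.10 for A_23_P135722 and -0.41 for A_32_P865613, both below mock.

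NRG1, the neuregulin that binds ERBB3 and ERBB4, was above background on 1 or 2 arrays with each of its 4 probes and on no mock array. All 4 were on miR-372 sample 4, and the ratios there were at least 7.65-fold for A_23_P360777 (NM_013957), 4.29-fold for A_23_P136493 (NM_013962), 2.48-fold for A_23_P315815 (NM_013961) and 2.23-fold for A_23_P407497 (NM_013959). On that array all 14437 probes dim on mock sample 1 had a median log2 difference of 2.46, and the 11 members among them were all above 0. The part of this shift in the NRG1 ratios was not tested. Elsewhere 1 probe each was above background, with ratios of at least 3.10-fold on miR-373 for A_23_P407497, 3.22-fold on miR-520c for A_23_P136493 and 1.04-fold on miR-302a for A_23_P360777. Over the 9 untested member probes, 7 were above background on miR-372 sample 4 against 0 to 2 on the other arrays, and all 9 were above mock there.

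**Figure D2:**
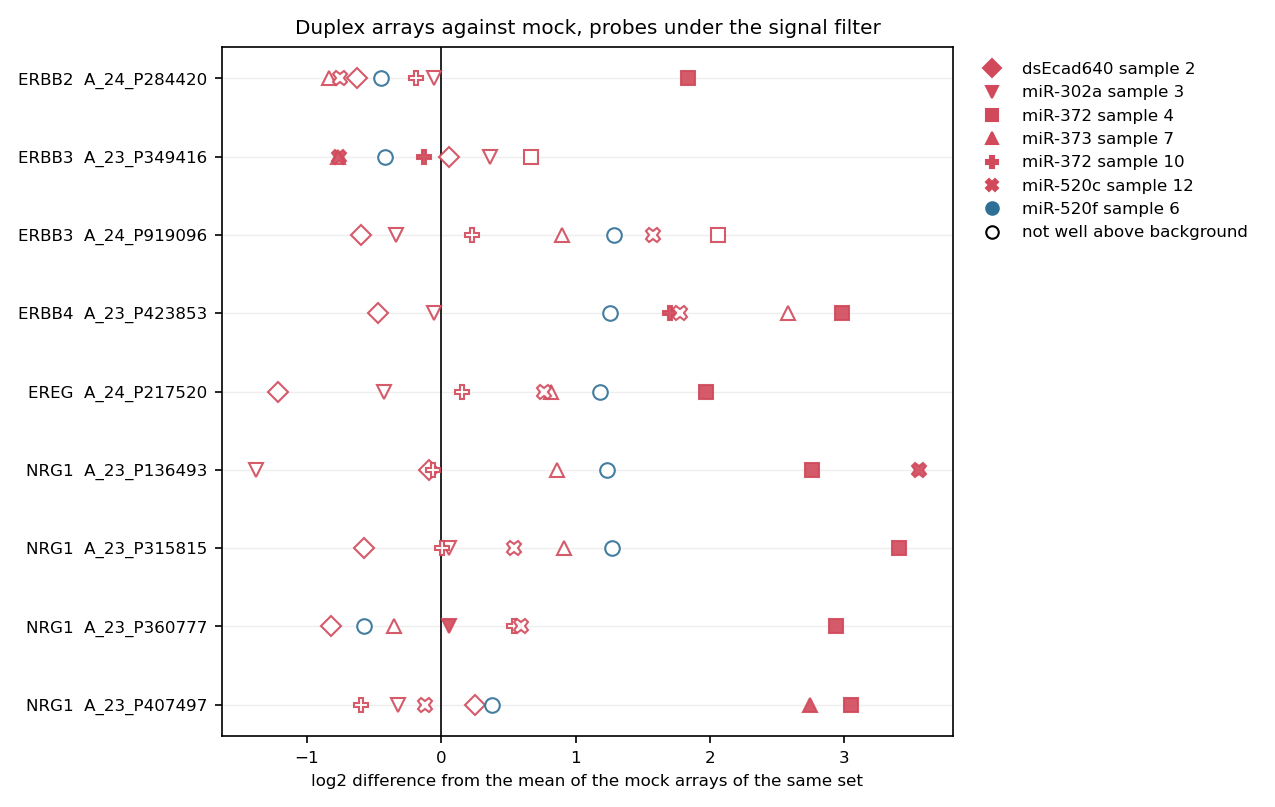
Log2 differences from the mean mock level of the set for the 9 member probes that were not tested, with open symbols for signals that were not well above background. miR-372 sample 4, the squares, lies above 0 for all 9 probes.

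Fitted together, with the set as a block and classes for mock, the 6 common-seed arrays and miR-520f, the ERBB4 probe differed from mock by 2.20 (SE 0.33) after the common-seed duplexes. HBEGF A_24_P140608 differed by 0.35 (SE 0.12), AREG by 0.42 (SE 0.18) and EGFR by -0.34 (SE 0.15), and the other 7 probes by -0.16 to 0.12. With an adjusted p under 0.05 by limma as the call, 1 of the 11 tested member probes was called, where 4.32% of all 26919 probes were (2.23% higher and 2.09% lower). It was the probe of ERBB4, which passed the filter with 5 of the 6 common-seed arrays but 2 of the 4 mock arrays, and 6 alternative fits did not call it. All 6 common-seed arrays lay above mock for 3 of the 11 member probes, against 16.7% of all probes, and below mock for 1, against 11.5%. Nothing is read from these counts, since the members were chosen on this contrast. The median difference was 0.08 for the members and 0.03 for all probes tested.

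With miR-520f, which had 1 array assumed to vary like the others, the fitted difference from mock was 1.86 (SE 0.64) for ERBB4, although its signals in set 2 were not above background. It was 0.87 (SE 0.22) and 0.53 (SE 0.20) for the probes of HBEGF and 0.89 (SE 0.34) for AREG. EGFR stood at -0.03 (SE 0.29), EREG at -0.79 (SE 0.71) and BTC at 0.13 (SE 0.24) and 0.82 (SE 0.53). Nothing is read from the counts of calls and p-values in this paragraph. The members were chosen with values of the same arrays in view, and the mock arrays are shared. No member was called by limma, where 0.68% of all probes were, and 4 of the 11 had an unadjusted p under 0.05, against 12.5% of all probes. The comparison of miR-520f with the common-seed duplexes, which uses the same arrays, called no member and 0.0669% of all probes, with 2 of the 11 at an unadjusted p under 0.05, against 7.48% of all probes. The members differed there by -0.87 for EREG to 0.70 for BTC A_32_P865613, and the range of 2 SE around the difference of EGFR was -0.28 to 0.90. In a fit with a mean for each duplex no member was called, and 0.0% of all probes were. There 0 to 3 of the 11 member probes had an unadjusted p under 0.05 for a duplex, against 3.57% of all probes for miR-373 to 17.1% for miR-520c.

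EPGN, EREG, AREG and BTC are neighbours within 497 kb of chromosome 4 in hg18 (chr4:75397646-75894921). Epigen, the ligand encoded by EPGN, was not among the members. Its probe A_24_P205994 (chr4:75397646-75397705) was above mock on all 7 duplex arrays, by 0.54 with dsEcad640, 0.38 with miR-302a, 0.64 and 0.04 with miR-372 in sets 1 and 3, 0.51 with miR-520c, 2.39 with miR-373 and 3.88 with miR-520f. In set 2 mock sample 8 was not well above background, at -7.65 against -4.83, -3.78 and -3.48 on the other mock arrays, and neither was miR-373. The ratio for miR-520f was at least 3.09-fold, and the fitted common-seed difference of 0.83 (SE 0.32) had an adjusted p of 0.187 by limma. AREG was above mock on all 7 duplex arrays and EREG A_23_P41344 on 2. That EREG probe was not well above background with miR-520f or miR-373. Whether the neighbours changed together was not tested.

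AREG and 1 probe each of ERBB4 and HBEGF stood above mock on all 7 duplex arrays, and the 300 bases around their starts, as RefSeq gives them on GRCh38.p14, are shown with the E-boxes CACCTG and CAGGTG in capitals. These hexamers are each other's reverse complement and are bound by ZEB1, the repressor that the study followed. At 24 h, the time of these arrays, the study saw little or no fall of ZEB1 protein with dsEcad640. It also found no rise of E-cadherin mRNA on the arrays. A part of ZEB1 in the values of the members was not tested. The promoter of AREG is chr4:74444886-74445185 on the plus strand, and on the minus strand that of HBEGF is chr5:140346554-140346853 and that of ERBB4 is chr2:212538753-212539052.
AREG: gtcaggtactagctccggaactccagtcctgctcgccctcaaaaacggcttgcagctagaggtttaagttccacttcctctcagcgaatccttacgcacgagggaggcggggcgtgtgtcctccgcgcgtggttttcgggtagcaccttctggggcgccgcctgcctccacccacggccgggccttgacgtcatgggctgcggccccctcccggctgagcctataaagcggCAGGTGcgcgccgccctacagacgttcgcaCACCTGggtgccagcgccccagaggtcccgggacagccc
HBEGF: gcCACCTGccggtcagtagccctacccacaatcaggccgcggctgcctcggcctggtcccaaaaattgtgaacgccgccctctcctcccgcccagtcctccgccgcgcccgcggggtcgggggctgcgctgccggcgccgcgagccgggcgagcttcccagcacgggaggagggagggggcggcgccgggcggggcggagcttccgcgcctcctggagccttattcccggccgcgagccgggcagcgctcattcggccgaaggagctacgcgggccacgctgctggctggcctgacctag
ERBB4: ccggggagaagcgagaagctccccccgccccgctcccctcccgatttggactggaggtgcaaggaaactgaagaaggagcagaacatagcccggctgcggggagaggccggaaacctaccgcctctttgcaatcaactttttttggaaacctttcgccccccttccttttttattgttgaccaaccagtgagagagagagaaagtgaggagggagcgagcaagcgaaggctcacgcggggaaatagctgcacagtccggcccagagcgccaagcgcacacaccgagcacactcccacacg
AREG held 2 matches, HBEGF 1 and ERBB4 none, and a match also stood in 1 window each of EREG, TGFA and BTC, while EGFR and ERBB2 had none. Windows were available for 8 of the 10 members, and not for ERBB3 and NRG1. A match in 20.6% of all 35116 promoter windows of this length shows how common these letters are. A match is a description and not a site.

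The genes around the receptors were taken as 9 lists with 127 tested probes. Of these, 3 rose and 4 fell after the common-seed duplexes with an adjusted p under 0.05 by limma, 5.51% against 4.32% of all probes, and 1 rose and 2 fell with miR-520f, 2.36% against 0.68%. The median difference of the 127 probes was 0.05 after the common-seed duplexes, against 0.03 over all probes, and 0.12 with miR-520f, against -0.06. The lists were chosen with results of these arrays known, and the calls depended on single arrays. Without mock sample 1 none of the 127 was called after the common-seed duplexes (of all probes, 24 were), without mock samples 8, 9 and 11 the number was 1, 2 and 1, and without miR-372 sample 10 it was 4. With miR-520f it was 0 without mock sample 1, mock sample 8 or miR-372 sample 10, and 7 without miR-372 sample 4. The difference of HMGA2 between miR-520f and the common-seed duplexes, given below, was likewise not called without mock samples 1, 8 and 9 or miR-372 sample 10.

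In the list of ligand release, with 10 tested probes, 1 fell. ADAM9, a membrane protease, had levels of 0.17, 0.12, 0.34 and 0.18 on mock samples 1, 8, 9 and 11 with probe A_23_P72643, and of -1.09 with dsEcad640, -0.84 with miR-302a, -0.59 and -0.42 with miR-372 in sets 1 and 3, -0.61 with miR-373 and -1.50 with miR-520c. With miR-520f the level was -2.26, the lowest of the 11. No duplex array overlapped mock, and the difference was -1.04 (SE 0.22, limma adjusted p 0.043) after the common-seed duplexes and -2.54 (SE 0.42, limma adjusted p 0.048) with miR-520f. The other ADAM9 probe gave -0.78 (SE 0.37) and -2.56 (SE 0.71), neither of which passed the test.

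In the PI3K-AKT branch, 2 of 22 tested probes fell. PIK3CA, the catalytic subunit alpha of PI3-kinase, had levels of -0.23, -0.11, 0.23 and -0.05 on mock samples 1, 8, 9 and 11 and of -1.30 to -0.63 on the common-seed arrays, with a difference of -0.91 (SE 0.15, limma adjusted p 0.020). With miR-520f it was -0.23, and the difference of -0.21 (SE 0.28) did not pass the test.

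Among genes that ERK activity induces as its own brakes, 1 of 10 tested probes rose. DUSP5, a phosphatase of ERK, had levels of 0.33, 0.40, 0.40 and 0.35 on mock samples 1, 8, 9 and 11, and 1.92 with dsEcad640, 1.50 with miR-302a, 1.46 and 1.36 with miR-372, 1.35 with miR-373 and 1.48 with miR-520c. With miR-520f it was 1.06, so that all 7 duplex arrays lay above all mock arrays. For DUSP5, as for ADAM9 and ERBB4 above, the share of all probes with such separation is not given here. The difference was 1.11 (SE 0.12, limma adjusted p 0.0057) after the common-seed duplexes and 0.74 (SE 0.23, limma adjusted p 0.220) with miR-520f. The call for DUSP5 held in 12 of the 13 alternative fits and was lost without mock sample 1, at an adjusted p of 0.061.

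Of 26 tested probes for genes that ERK signalling switches on, 2 rose and 1 fell after the common-seed duplexes. Both were of IER2, an immediate early gene, at 0.71 (SE 0.13, limma adjusted p 0.029) and 0.72 (SE 0.14, limma adjusted p 0.037). PLAUR, the urokinase receptor, fell by 0.35 (SE 0.08, limma adjusted p 0.046). HMGA2, a chromatin protein, rose with miR-520f in probe A_23_P95930 by 1.69 (SE 0.18, limma adjusted p 0.015), from 0.55 on mock sample 8 to 2.31. Its difference between miR-520f and the common-seed duplexes was 1.94 (SE 0.18, limma adjusted p 0.029), the only such call in the lists, while a second HMGA2 probe differed by 0.30 (SE 0.25) there.

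No probe passed the test after the common-seed duplexes in the lists of other ligands (3 tested probes), adaptors (15), the RAS-ERK cascade (13), the STAT branch (7) and receptor inhibitors (21). Those with the lowest p were EPGN, above, and NRG2 at 0.11 (SE 0.12). For the adaptors they were GRB7 at 0.36 (SE 0.10) and PLCG1 at 0.25 (SE 0.09). For the STAT branch they were both probes of JAK1 at -0.75 (SE 0.21) and -0.39 (SE 0.11), and for the inhibitors NEDD4 at -0.43 (SE 0.10) and CBLC at 0.91 (SE 0.33), 2 ubiquitin ligases.

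As a description over the 11 arrays, with values less the mean mock level of the set, the 3 other named probes most like ERBB4 were those of GRB7 (Pearson r = 0.96), KRT8 (0.96) and TNIK (0.95). Those most like EGFR were RRAD (0.95), AMIGO2 (0.94) and BDKRB1 (0.94), which share with it the arrays, the sets and the mock reference. Their fitted common-seed differences were 0.36, 0.88 and 1.29 for the first 3 and -0.31, -0.39 and -1.21 for the others. KRT8 and KRT18 are epithelial keratins of the marker list, of whose 8 tested probes 5 rose after the common-seed duplexes by limma, 62.5% against 4.32% of all probes. Without mock sample 1 none of these 5 was called, and both KRT8 probes also lost the call without the set as a block. The summed level of the list was 206 to 241 times the 75th percentile on the mock arrays, 297 to 361 on the common-seed arrays and 311 with miR-520f, and its part in the value of ERBB4 was not tested.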

How the data were processed

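RNA of PC-3 cells was hybridised to 11 Agilent whole human genome arrays with 1 colour. The authors deposited scanner files written by Feature Extraction 10.5.1.1, whose processed signal is an intensity after background subtraction within each array, not scaled between arrays. The authors also deposited a table of log2 values, with a normalization that is not given in the sources used here, which served within sets as an alternative. With R 4.3.3, limma 3.58.1 and Python 3.11.15, control and outlier spots were left out, log2 signals were set relative to the 75th percentile of their array, spots of a probe were averaged, and probes well above background on at least 6 of 11 arrays with a value on every array were tested (26919 of 41000). A linear model with set as a block and Benjamini-Hochberg adjustment was used, and was checked on simulated data. Where one side was not well above background, a ratio is a bound against the lowest signal that was on that array. Where the dim signal itself was higher than this, the bound is against the dim signal. Signals below background entered fits as measured. The number of arrays limits the precision.

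The members, gene lists and tests were chosen with earlier results of these data known. All member probes were named, and in each list the probes past an adjusted p of 0.05 after the common-seed duplexes, or up to 2 with the lowest p. HMGA2 and the second probes of a gene were named beyond that rule, after their values were seen. SOS2 and NRG3 were not found by name. Some items of the lists enter the counts and are not reported here by name. Alternatives were no block, quantile normalization, normexp with an offset of 50, other filters, dim signals raised to a floor, outlier spots kept, and single mock or miR-372 arrays removed.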

Additional observations from a re-analysis of the deposited data

Results flagged for a closer look

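Member values were taken in 40 groups, each of 4 mock levels or 6 common-seed differences. Of these groups, 7 held an array whose gap to the next was large against the range. Chance alone gives about 1 group in 20 where groups are independent. These groups share arrays and mock references, so nothing is read from the count. On miR-372 sample 4 the difference was 1.84 for ERBB2 A_24_P284420, 1.59 for EREG A_23_P41344 and 3.40 for NRG1 A_23_P315815, each far above the other common-seed arrays. The authors' log2 table gives 0.04 for that EREG value. On miR-520c sample 12 the difference of AREG was 1.07, far above the other 5. Among the mock levels, the lowest array stood apart at 0.74 for ERBB2 A_23_P89249 and at -9.43 for ERBB4 A_23_P423853, both in mock sample 11, and at -1.20 for HBEGF A_24_P140608 in mock sample 9. HMGA2 A_23_P95930 differed between miR-520f and the common-seed duplexes by 1.94, a difference tested by limma with an adjusted p of 0.029.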

How the results depend on the processing

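After the common-seed duplexes 1162 probes were called, with 394 without the set as a block, 236 without the filter on dim probes, 2098 with the filter on all 11 arrays, and 24 to 1934 with a single array of mock or miR-372 removed. With miR-520f 183 were called, with 83 without the block, 446 after quantile normalization, 103 after normexp, 1 without the filter, 331 with all 11 arrays, and 0 to 789 with an array left out. Between miR-520f and the common-seed duplexes 18 were called, with 168 after quantile normalization, 30 after normexp, 0 without the filter, 63 with all 11 arrays, 11 with dim signals raised to the floor, 67 with outlier spots kept, and 0 to 335 with an array left out. For single duplexes 0 were called, with 161 after normexp and 0 to 3326 with an array left out. Without mock sample 8, miR-520f has no mock array in its set in that fit, and no value was obtained.

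The difference of ERBB4 after the common-seed duplexes stayed above 0 in all 13 alternatives, from 0.40 after normexp to 2.34 without mock sample 9, and was 1.41 with dim signals raised to the floor and 2.28 in the authors' table, where it has values in set 3 only. EGFR stayed below 0, and AREG and HBEGF A_24_P140608 above 0, in every alternative. Of 65 member differences of single arrays also found in the authors' table, 56 had the same sign there. The largest gap was 1.77, for TGFA on miR-372 sample 4. With miR-520f, EREG turned from -0.79 to 0.29 with the floor and -0.09 after normexp, ERBB4 went from 1.86 to 0.37 after normexp and 1.17 without the block, AREG from 0.89 to 0.36 without the block, and BTC A_32_P865613 from 0.82 to 0.19 without the block and 0.33 after normexp. Without the block, EGFR went from -0.03 to -0.31, TGFA from 0.09 to 0.46 and HBEGF A_23_P213944 from 0.53 to 0.71 (0.37 after normexp), and without mock sample 8, ERBB2 A_23_P89249 went from 0.10 to 0.28 and ERBB3 A_24_P918970 from 0.37 to 1.20. The cause of these shifts was not tested.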
